A study of Mus musculus with 4 samples.

Results

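The 8 genes described here encode transcription factors of forebrain interneurons, grouped under the medial ganglionic eminence, the ventral zone of the embryonic forebrain that gives rise to most somatostatin and parvalbumin interneurons. They are Lhx6, Sox6, Satb1, Maf, Nkx2-1, Npas1, Npas3 and Prox1, taken by symbol from 23991 symbols in each deposited table, and each had 1 entry. The tissue was the amygdala (left and right), and every mouse was NpyCre/+;TRAPlox/lox, of an age that the sources used here do not give. Translating ribosome affinity purification (TRAP) pulls down the RNA on tagged ribosomes, here in cells in which Cre, driven by the neuropeptide Y gene, had acted on a lox allele. There were 2 immunoprecipitate (IP) libraries and 2 total input libraries, each from 3 pooled mice of this same genotype. No Cre-negative or mock precipitate was analysed here, so RNA that sticks without the tag was not measured.

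In the mouse, Nkx2-1 sets the identity of this eminence and switches on Lhx6, which in turn is needed for Sox6 and Satb1 expression and for the somatostatin and parvalbumin fates. Nkx2-1 is silenced in interneurons bound for the cortex and kept in many of those bound for the striatum. Maf acts in interneurons of this origin. Npas1 and Npas3 are bHLH-PAS factors that pair with Arnt proteins, and neither is limited to this origin. Prox1 is better known as a factor of interneurons from the caudal ganglionic eminence and of dentate granule cells, so the group's name does not cover it in the usual sense.

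Promoter windows of Lhx6 and Nkx2-1, the members with the largest IP to input ratios, are printed below from RefSeq (GRCm38.p6): the outer 2 of 3 windows of Lhx6 and the one of Nkx2-1 at the start in the deposited table. Each runs from 250 bases before to 50 after a start, 5′ to 3′ on the minus strand. Capitals mark matches on either strand to AACAAT (the SOX core) or TGCTGA (the core of the MAF site). Words searched without a match in these windows were TAATTA (homeodomain core) and CAAGTG (NKX2-1 core).

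Lhx6, upstream start, chr2:36105359-36105658: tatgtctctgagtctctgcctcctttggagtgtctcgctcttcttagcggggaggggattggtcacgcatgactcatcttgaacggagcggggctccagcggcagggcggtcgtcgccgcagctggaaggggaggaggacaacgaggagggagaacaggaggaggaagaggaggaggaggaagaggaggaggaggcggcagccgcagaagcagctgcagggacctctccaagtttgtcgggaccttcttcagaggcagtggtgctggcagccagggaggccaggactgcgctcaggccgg

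Lhx6, downstream start, chr2:36104011-36104310: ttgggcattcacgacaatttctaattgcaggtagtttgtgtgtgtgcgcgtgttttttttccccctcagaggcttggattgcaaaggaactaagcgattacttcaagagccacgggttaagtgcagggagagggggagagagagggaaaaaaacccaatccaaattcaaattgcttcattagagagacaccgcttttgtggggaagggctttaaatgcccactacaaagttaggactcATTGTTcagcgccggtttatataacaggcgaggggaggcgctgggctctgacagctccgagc

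Nkx2-1, chr12:56536859-56537158: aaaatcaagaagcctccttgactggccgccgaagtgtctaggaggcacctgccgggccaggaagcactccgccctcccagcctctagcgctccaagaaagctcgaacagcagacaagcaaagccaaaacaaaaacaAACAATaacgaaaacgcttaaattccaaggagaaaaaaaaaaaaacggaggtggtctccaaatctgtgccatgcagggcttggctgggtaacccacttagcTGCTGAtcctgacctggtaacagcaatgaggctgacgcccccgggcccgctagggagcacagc

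The upstream Lhx6 window held none of the 4 words, nor did the window between the printed pair (chr2:36104484-36104783), and the downstream one held a SOX word 12 bases before the start. The Nkx2-1 window held a SOX word 114 bases and a MAF word 13 bases before its start. RefSeq gave 19 windows for 7 members, Maf having none in the table, and for 5 members (Lhx6, Sox6, Satb1, Nkx2-1 and Npas1) a start equalled that of the deposited entry. TAATTA was in 0 of the 19 windows, against 5.29% of all 32851 windows of this length. CAAGTG was in 4 windows (13.56% of all), AACAAT in 3 (10.72% of all) and TGCTGA in 3 (19.48% of all). Windows of 1 gene can overlap, and a match to a short word is not a binding site.

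The values are FPKM from Cufflinks, fragments scaled to transcript length and library depth, so levels can be compared between genes. Differences were tested on log2(FPKM + 1) with limma over 12417 genes, at a Benjamini-Hochberg adjusted p of 0.05. Adding 1 understates the change of low genes, so ratios of mean FPKM are given as well. The 4 tables summed to 423985 and 419349 FPKM in IP and 334759 and 335119 FPKM in input, with no read totals. Npy, the driver gene, was at 1240 and 1167 FPKM in IP, against 105.4 and 99.2 FPKM in input. All 7 tested markers of interneurons of this eminence were higher in IP (Sst, Pvalb, Npy, Cort, Chodl, Nos1 and Crhbp). So were all 4 of GABAergic neurons, while 37.0% of all genes tested were higher. The tagged cells were chosen through Npy, so its rise was built into the design. Chodl passed the filter on low values (FPKM of at least 1 in 2 libraries) through IP alone, so that it had to differ. In tissue RNA of this kind, fewer cells of a type and less RNA per cell cannot be told apart.

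Of the 8 factors, 6 rose in IP, 1 fell and 1 did not pass. The genes that rose were Lhx6, Nkx2-1, Satb1, Sox6, Npas1 and Maf, and Npas3 fell. Of all genes tested, 70.9% passed, 37.0% of them as higher and 33.9% as lower over the same total, so passing alone says little. With a log2 change of at least 1 asked as well, 6 of the 8 factors were higher, against 3.48% of all genes, and 0 were lower, against 7.87%. IP and input values did not overlap for any of the 8 factors, 6 of them higher and 2 lower, while 86.4% of all genes did not overlap, 45.0% higher and 41.4% lower. The median log2 change of the 8 was 1.40, beside 0.03 over all genes. Nkx2-1 passed the filter on low values through its IP libraries alone, so that it had to differ and adds no independent support to these counts. With no filter on FPKM it was also called higher (log2 change 1.66; limma, adjusted p = 0.00202).

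Lhx6 is a LIM-homeodomain factor needed for the migration and fate of these interneurons. Its values were 99.0 and 105 FPKM in IP, against 12.9 and 12.2 FPKM in input. Both IP values lay far above both input values, 8.13-fold by the means (102 ± 4.43 against 12.6 ± 0.55 FPKM, SD, n = 2). The log2 change was 2.93 (SE 0.06; limma, adjusted p = 4.52e-06). It was the 14th largest rise among the 12417 genes. The gene lies on chromosome 2 from 36081953 to 36105408, minus strand (mm10, whole gene), with Gm27953 annotated on the same strand.

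Nkx2-1, the homeodomain factor upstream of Lhx6 in the embryo, was at 3.30 and 4.59 FPKM in IP, against 0.56 and 0.54 FPKM in input. The groups did not overlap, and the IP mean was 7.13-fold the input mean (3.94 ± 0.91 against 0.55 ± 0.01 FPKM, SD, n = 2). The log2 change was 1.66 (SE 0.14; limma, adjusted p = 0.000132), and it ranged from 0.68 with a pseudocount of 5 to 2.61 with a pseudocount of 0.1. The 2 IP libraries stood apart, since the authors' confidence limits were 2.78 to 3.81 FPKM in IP replicate 1 and 3.91 to 5.27 FPKM in IP replicate 2. In input those limits reached 41.6% and 39.1% of the value to either side, the widest of any member. The gene lies on chromosome 12 from 56531935 to 56536908, minus strand. GENCODE M21 has the antisense gene Gm26973 over it, and reads of such pairs cannot be told apart unless counted by strand, a setting that the sources used here do not state.

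Satb1, a chromatin organizer that acts in maturing somatostatin interneurons, was at 39.2 and 35.3 FPKM in IP, against 13.1 and 13.3 FPKM in input. It was 2.82-fold higher in IP, with groups that did not overlap (log2 change 1.43, SE 0.07; limma, adjusted p = 2.77e-05). The gene lies on chromosome 17 from 51736187 to 51833290. Gm6934 is annotated over it on the other strand, and E430014B02Rik, C230085N15Rik, Gm36931, 5830444F18Rik and Gm37248 on the same strand.

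Sox6, an SRY-box factor that positions and matures these interneurons, was at 10.1 and 10.1 FPKM in IP, against 2.99 and 3.39 FPKM in input. The IP values were nearly equal, and the means differed 3.17-fold (log2 change 1.41, SE 0.08; limma, adjusted p = 4.19e-05). Sox6 is also a factor of oligodendrocyte precursors. Of 7 precursor markers, 6 were lower in IP and 1 did not pass, with a summed level of 17.9 and 23.3 FPKM in IP and 75.2 and 79.7 FPKM in input. Of the 7, Pdgfra, Cspg4 and Gpr17 passed the filter through input alone, so that these 3 had to differ. Pdgfra, a defining receptor of those cells, was at 0.40 and 0.55 FPKM in IP, against 3.80 and 4.45 FPKM in input. Sox6 thus rose while most of those markers fell, and their share of the Sox6 signal in input was not tested. Sox6 lies on chromosome 7 from 115470872 to 116038744, with Sox6os and Gm45025 annotated on the other strand.

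Maf, a bZIP factor, had 10.8 and 9.75 FPKM in IP, against 4.54 and 3.96 FPKM in input. It was 2.41-fold higher, the smallest ratio among the 6 that rose (log2 change 1.10, SE 0.09; limma, adjusted p = 0.000127). Maf is also expressed in microglia, whose 9 markers were all lower in IP, with sums of 9.24 and 9.52 FPKM in IP and 59.8 and 53.9 FPKM in input. Of the 9, 8 passed the filter through input alone and so had to differ. None of the 9 was at 0 in IP, and their part in the Maf values was not tested. Maf lies on chromosome 8 from 115703253 to 115706894, with Gm15655 annotated on the other strand.

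Npas1 was at 15.1 and 14.3 FPKM in IP, against 4.68 and 5.35 FPKM in input. Its groups did not overlap, and it was 2.93-fold higher (log2 change 1.39, SE 0.08; limma, adjusted p = 4.62e-05). Npas1 lies on chromosome 7 from 16455721 to 16476780, with the rRNA entry n-R5s151 annotated on the other strand.

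Npas3, the related bHLH-PAS factor, went the other way. It was at 1.42 and 1.74 FPKM in IP, against 2.27 and 2.67 FPKM in input, a ratio of 0.64 between groups that did not overlap (log2 change -0.43, SE 0.11; limma, adjusted p = 0.0124). It no longer passed when IP replicate 1 was left out (-0.34, adjusted p = 0.0561) or input replicate 2 was (-0.35, adjusted p = 0.0813). Nor did it pass with quantile normalization (-0.03, adjusted p = 0.823) or with transcript length corrected for (-0.18, adjusted p = 0.191). Astrocyte markers were lower in IP for 7 of 8 genes, with sums of 140.7 and 185.9 FPKM in IP and 496 and 547 FPKM in input. Their part in the Npas3 difference was not tested. Npas3 lies on chromosome 12 from 53248677 to 54072175, plus strand, with 1700030L22Rik and 1700060O08Rik annotated on the other strand.

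Prox1 was at 1.79 and 1.53 FPKM in IP, against 1.84 and 3.02 FPKM in input. The input libraries stood apart, with confidence limits of 1.54 to 2.13 FPKM in replicate 1 and 2.65 to 3.40 FPKM in replicate 2. IP replicate 1 was close to input replicate 1, and the difference did not pass (log2 change -0.35, 95% interval -0.77 to 0.07; limma, adjusted p = 0.114). It passed as lower without input replicate 1 (-0.60, adjusted p = 0.0189) and after rescaling all libraries to one FPKM sum (-0.72, adjusted p = 0.0252), while the change was 0.05 with quantile normalization and 0.04 after correction for length. Prox1 lies on chromosome 1 from 190121777 to 190170680, with Prox1os and Gm28172 on the other strand.

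**Figure D1:**
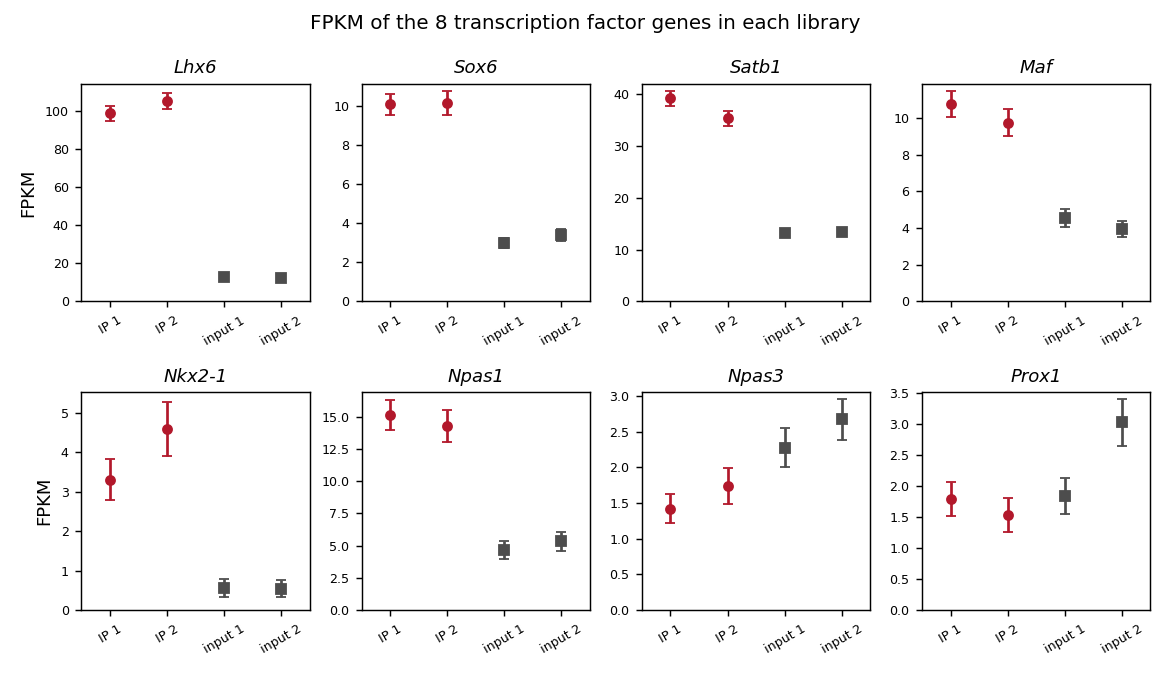
FPKM of each of the 8 genes (linear axes from 0, a different scale in each panel) in IP libraries 1 and 2 (red circles) and input libraries 1 and 2 (grey squares), with bars for the authors' confidence limits. The IP points of Lhx6, Sox6, Satb1, Maf, Nkx2-1 and Npas1 lie above the input points, those of Npas3 lie below, and for Prox1 input library 2 stands above the other 3 libraries.

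Within each matched pair of libraries, the order of the members was much the same. The ratio of IP to input for Lhx6 was 7.64 in pair 1 and 8.65 in pair 2, and for Nkx2-1 it was 5.86 and 8.46. For the other 4 that rose it lay between 2.37 (Maf, pair 1) and 3.37 (Sox6, pair 1). Npas3 gave 0.62 and 0.65, and Prox1 gave 0.97 and 0.51. On the log2(FPKM + 1) scale, the 95% interval of Lhx6 (2.78 to 3.07) did not overlap that of any other member. The nearest was Nkx2-1 (1.32 to 1.99). That gap depended on the pseudocount, which weighs most on low genes. With a pseudocount of 0.1 the changes were 3.01 for Lhx6 and 2.61 for Nkx2-1, and with 5 they were 2.61 and 0.68. The intervals of Nkx2-1, Satb1 (1.26 to 1.59), Sox6 (1.21 to 1.61) and Npas1 (1.19 to 1.59) overlapped each other. That of Maf (0.88 to 1.32) overlapped those of Satb1, Sox6 and Npas1 and met that of Nkx2-1 at its edge. No test between genes was made.

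Ordered by mean level in IP, Lhx6 (102 FPKM) stood first, then Satb1 (37.2 FPKM), Npas1 (14.7 FPKM), Maf (10.3 FPKM), Sox6 (10.1 FPKM), Nkx2-1 (3.94 FPKM), Prox1 (1.66 FPKM) and Npas3 (1.58 FPKM). Maf and Sox6 did not differ beyond their spread, nor did Prox1 and Npas3. In input the order began with Satb1 (13.2 FPKM) and Lhx6 (12.6 FPKM), followed by Npas1 (5.01 FPKM), Maf (4.25 FPKM), Sox6 (3.19 FPKM), Npas3 (2.47 FPKM), Prox1 (2.43 FPKM) and Nkx2-1 (0.55 FPKM). There the values of Prox1 overlapped those of Npas3 and of Sox6. Summed over the 8 genes, the level was 180.6 and 182.6 FPKM in IP and 43.0 and 44.4 FPKM in input. Lhx6 made up 54.8% and 57.6% of that sum in IP, against 30.1% and 27.4% in input.

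**Figure D2:**
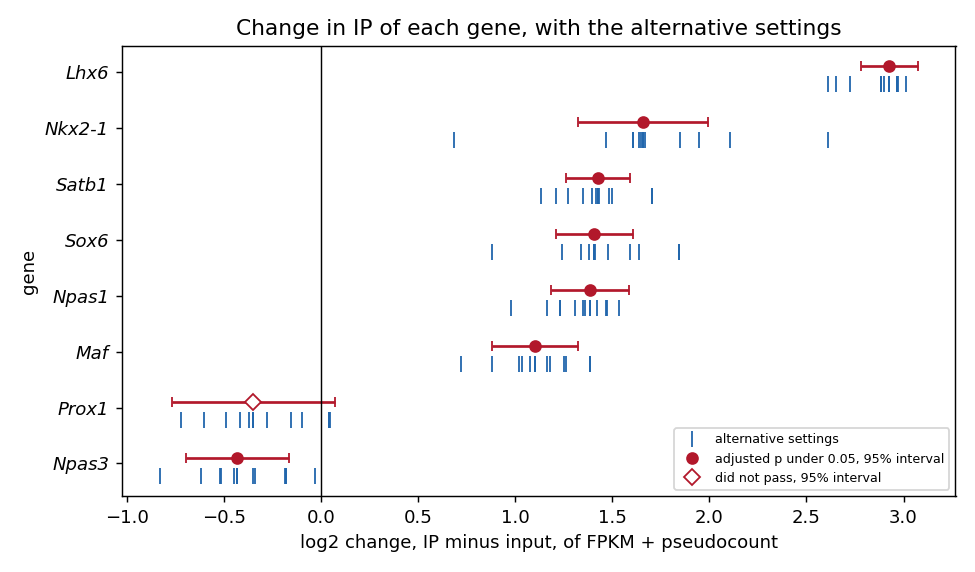
Log2 change of each gene, IP minus input, with its 95% interval (filled circles passed an adjusted p of 0.05, the open diamond did not), and below each the change under the alternative settings (blue ticks). The ticks of the 6 genes that rose all lie right of 0, the lowest at 0.68 for Nkx2-1, and those of Prox1 fall on both sides.

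The genes closest in pattern over the 4 libraries, by Euclidean distance between centred log2(FPKM + 1) values, were Rbp4 (0.22), Dlx1as (0.30) and Lgals1 (0.34) for Lhx6. Dlx1as is antisense to Dlx1, so its reads may not be separable from that gene. For Nkx2-1 they included Kcnmb2 (0.11), a potassium channel accessory subunit, and Tcap (0.13). For Sox6 they were Ccdc136 (0.06), its fellow member Npas1 (0.07) and Cox7b (0.08), and for Satb1 Apitd1 (0.06), Scrt1 (0.06) and the neurofilament gene Nefh (0.07). For Maf they were Amn (0.04), Sirt3 (0.05) and Ndufb4 (0.06), and for Npas1 Scx (0.04), Grip2 (0.05) and Ndufs6 (0.06). With 4 libraries in 2 groups, such likeness mostly restates the size of the change.

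Other transcription factors of the ventral forebrain were followed in a list of 18, of which 14 passed the filter on low values. Of these, 9 were higher in IP, 3 lower and 2 did not pass, with a median log2 change of 1.31, and 8 were higher with a log2 change of at least 1. Over all genes 37.0% were higher and 33.9% lower, with a median of 0.03, and the lists below are to be read against these. Gbx1, 1 of the 9, passed the filter through IP alone, so that it had to differ. The Dlx homeodomain factors of GABAergic progenitors led, with changes of 2.21 for Dlx1, 2.12 for Dlx2, 1.75 for Dlx5 and 1.58 for Dlx6. Sp9, a zinc-finger factor, averaged 10.9 ± 0.76 FPKM in IP and 3.18 ± 0.25 FPKM in input (SD, n = 2 each), a log2 change of 1.51. Among those that fell were Etv1 (-0.72) and St18 (-0.53), and Zeb2 (-0.11) and Cux2 (0.13) did not pass.

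A list of 12 genes from the programme of these interneurons, several of which depend on Lhx6, Satb1 or Sox6 in mutant mice, had 11 tested members, all of them higher in IP, with a median log2 change of 2.07. After rescaling 9 of the 11 passed as higher, and 10 did with IP replicate 2 or either input replicate left out, a pseudocount of 0.1, median-of-ratios scaling or length correction. Earlier results on Sst, Npy and Pvalb were known when it was drawn up, so it is no independent evidence. Those 3 genes changed by 3.75, 3.54 and 3.39. Besides them, Nxph1, a neurexin ligand, was at 72.8 and 81.2 FPKM in IP, against 11.9 and 12.3 FPKM in input (2.57). Nxph2 was at 7.14 and 8.53 FPKM in IP, against 0.98 and 1.23 FPKM in input (2.07). The fast potassium channel genes Kcnc2 and Kcnc1 rose by 1.80 and 1.25. The smallest changes were those of the neuregulin receptor Erbb4 (0.48) and the chemokine receptor Ackr3 (0.30; limma, adjusted p = 0.0467).

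Genes of the caudal ganglionic eminence, the origin with which Prox1 is usually linked, showed small changes. Of 11 tested of 13, 3 were higher, 1 was lower and 7 did not pass, with a median of 0.05 and none with a log2 change of 1 in either direction. With the replicate number as a block, 4 were higher and 3 lower, after rescaling 1 was higher and 5 lower, and with quantile normalization 4 were higher and 4 lower, so the list has no settled direction. Sncg rose by 0.85 and Lamp5 by 0.45, and Lamp5 did not pass after rescaling (0.12, adjusted p = 0.0917). Calb2 rose by 0.44, but did not pass with input replicate 1 left out (0.35, adjusted p = 0.127), with input replicate 2 left out (0.53, adjusted p = 0.0516), or with rescaling, quantile normalization or length correction. Nr2f2, a nuclear receptor of this origin, was at 11.2 and 15.6 FPKM in IP, against 18.1 and 18.9 FPKM in input (-0.45). It did not pass with input replicate 1 (adjusted p = 0.129) or input replicate 2 (adjusted p = 0.166) left out, without the filter on FPKM (adjusted p = 0.0749) or with length correction (-0.34, adjusted p = 0.0689). Vip was at 7.88 and 7.16 FPKM in IP, against 8.27 and 8.39 FPKM in input, and did not pass. Reln (-0.34, adjusted p = 0.0901) and the serotonin receptor gene Htr3a (0.23, adjusted p = 0.178) did not pass either, but with the replicate block Reln passed as lower (adjusted p = 0.0123) and Htr3a as higher (adjusted p = 0.048). Reln also passed as lower after rescaling (-0.70, adjusted p = 0.0131) and without input replicate 1 (-0.56, adjusted p = 0.0264), while with length correction its change was 0.27. Htr3a passed with quantile normalization (0.58, adjusted p = 0.0118), and its change was -0.02 after rescaling.

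Factors of the lateral ganglionic eminence and striatum were mostly lower where they passed. Of 10 tested of 12, 5 were lower, 1 was higher and 4 did not pass, with a median of -0.33. Rescaling gave 9 lower and 0 higher, quantile normalization 3 lower and 1 higher, and length correction 3 lower and 2 higher. Isl1 and Zfp503, 2 of the 5, passed the filter through input alone and so had to differ. Meis2, a TALE homeodomain factor, was at 18.3 and 18.5 FPKM in IP, against 36.5 and 30.7 FPKM in input (-0.83). Isl1, a LIM-homeodomain factor of striatal and cholinergic neurons, changed by -0.71 and Zfp503 by -0.64, and with quantile normalization neither passed (Isl1 -0.13, adjusted p = 0.379, and Zfp503 -0.18, adjusted p = 0.133). Foxp1 changed by -0.65, and did not pass with IP replicate 2 left out (-0.42) or input replicate 1 left out (-0.44). Nor did it pass without the filter on FPKM (limma, adjusted p = 0.0647) or with length correction alone (-0.31, adjusted p = 0.178). Bcl11b changed by -0.48, and by -0.07 with length correction (adjusted p = 0.434). Six3 rose by 0.36, and did not pass with IP replicate 2 left out (0.26, adjusted p = 0.172), input replicate 2 left out (0.21, adjusted p = 0.228) or after rescaling (0.09, adjusted p = 0.587).

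**Figure D3:**
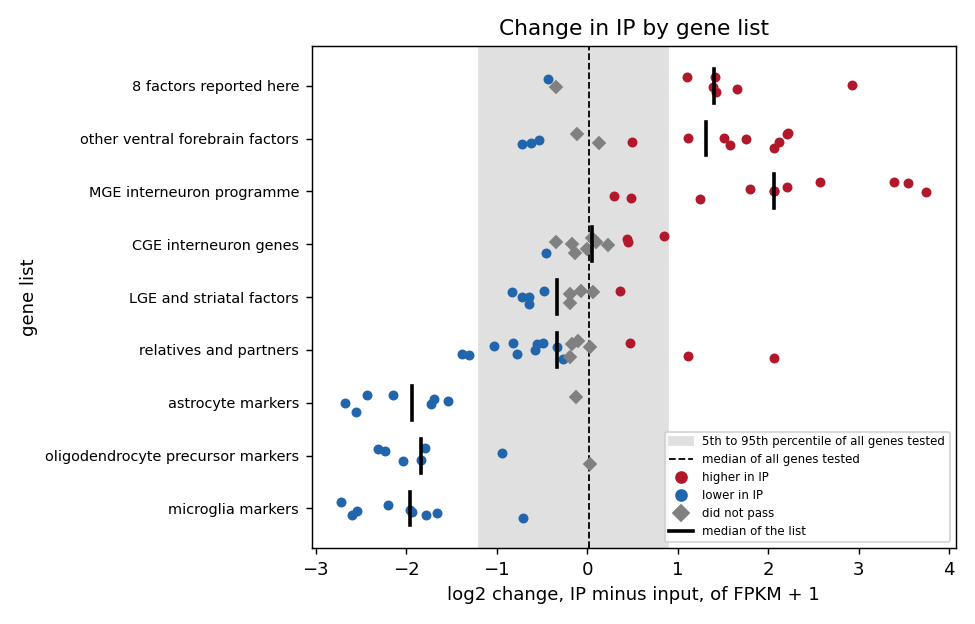
Log2 change, IP minus input, of the tested genes of each list (points, red higher, blue lower, grey not past the threshold) with the median of the list (black bar), over the 5th to 95th percentile of all genes tested (grey band, -1.19 to 0.90). MGE, CGE and LGE are the medial, caudal and lateral ganglionic eminences. The medians lie at 1.40 for the 8 factors, 1.31 for other ventral forebrain factors, 0.05 for CGE genes and -0.33 for LGE and striatal factors, and between -1.95 and -1.84 for markers of astrocytes, oligodendrocyte precursors and microglia.

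Among relatives and binding partners of the 8 factors, 17 of 22 were tested, 3 were higher, 10 lower and 4 did not pass, with a median of -0.34. Sox13 and Nkx2-2, 2 of the 10, passed the filter through input alone, so that they had to differ. Paralogs often did not move with the member. Sox5, a close relative of Sox6, did not pass (-0.10), and Sox13 fell by 0.77. The small Maf factors Mafg and Mafk changed by -0.26 and -0.34, against the rise of Maf. Lhx8, the closest relative of Lhx6 and a factor of cholinergic neurons, was at 3.71 and 5.09 FPKM in IP, against 1.34 and 1.62 FPKM in input (1.11). Chat, the gene of the acetylcholine-synthesizing enzyme, was at 0.11 and 0.36 FPKM in IP, against 1.76 and 1.75 FPKM in input, and it too passed the filter through input alone. Nkx2-2, a factor of the oligodendrocyte lineage, changed by -1.03.

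The Arnt partners of Npas1 and Npas3 differed in direction. Arnt was at 3.18 and 3.19 FPKM in IP, against 9.89 and 8.84 FPKM in input, a log2 change of -1.31 (limma, adjusted p = 5.43e-05). Arnt2, the neuronal form, was at 84.7 and 83.2 FPKM in IP, against 59.6 and 60.9 FPKM in input (0.47; limma, adjusted p = 0.000246). Npas4, the activity-regulated relative, changed by -1.39, and did not pass with IP replicate 2 left out (-0.90) or input replicate 1 left out (-0.94). Nor did it pass without the filter on FPKM (limma, adjusted p = 0.0643). Of the LIM-domain cofactors through which Lhx6 acts, Ldb1 was at 49.5 and 49.0 FPKM in IP, against 51.0 and 45.3 FPKM in input, and did not pass. Ldb2 fell by 0.49, and Lmo1 and Lmo3, LIM-only proteins that bind the same cofactors, changed by -0.82 and -0.57.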

How the data were processed

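TopHat (default settings, mm10, iGenomes UCSC annotation) aligned the reads of 100 bases and Cufflinks computed FPKM, per the series' design text and the submitters' processing notes, with no versions stated. The deposited values are FPKM per gene with confidence limits made by the authors, per the file headers, with no scaling between libraries recorded. Groups and replicate numbers came from the titles. The source text of IP replicate 2 says replicate 1. No values of at least 5 FPKM were identical between replicates.

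Of 24490 entries per table, 8 with a failed status and 1274 small RNA entries were dropped, and the entry with the highest mean was kept per symbol. Genes reaching FPKM of 1 in 2 or more libraries were tested with limma 3.58.1 (lmFit, eBayes with trend, R 4.3.3), unblocked and two-sided. FPKM are not counts, so no count test was used, and the p-values rest on 2 pools of mice per group. The design text ties each IP to its corresponding input, so replicate numbers were taken to pair the libraries, and their deviations from the group means correlated at 0.161 across genes. The test was checked only on data simulated from the means and spread of the input libraries, without pairing. That check does not cover the spread of the IP libraries or the pairing. Members, lists and the log2 criterion of 1 were chosen with earlier results of these data known. Each list is described by its counts, with up to 6 genes of largest change, and the other genes named were chosen after their values were seen. Some genes of these lists are counted but not reported here by name. Transcript lengths came from GENCODE M21 for 99.4% of the genes tested. Alternatives were other pseudocounts, filters, scalings, the replicate block, no trend, length correction and each library left out. File starts were written 1-based. Python 3.11.15, pandas 2.3.3 and matplotlib 3.10.9 made tables and figures.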

Additional observations from a re-analysis of the deposited data

How the results depend on the processing

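In 15 alternatives the 6 factors that rose kept their direction and call in all 89 values that could be computed, Nkx2-1 being untested under the filter at FPKM of 5. The smallest change was 0.68 and the largest adjusted p was 0.00743 (limma). The count of 6 ranged from 6 to 6 with 1 library left out. With a log2 change of at least 1 it was 2 (Lhx6 and Satb1) under a pseudocount of 5, where 244 of all genes met that criterion, against 432. Rescaling left 5 factors (Maf was at 0.88) and 201 genes, and the filter at FPKM of 5 left 5 factors.

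With a filter at FPKM of 5, Npas3 and Prox1 were not tested. The count of 1 lower factor was 0 with that filter, with quantile normalization and after length correction, with or without the replicate block, and 2 after rescaling. It ranged from 0 to 2 with 1 library left out. Over all genes, rescaling gave 2228 higher and 6684 lower, against 4597 and 4205, and moved the median change of all genes to -0.29. Relative to that median, Lhx6 changed by 2.94, Nkx2-1 by 2.24, Npas3 by -0.54 and Prox1 by -0.43. A filter at FPKM of 5 left 2437 lower genes, fewer genes being tested. With 1 library left out, 3760 to 4232 genes were higher and 3331 to 4019 lower. The replicate block gave 4746 higher and 4368 lower genes and changed no call of a member. Reln, at -0.34 and not past the threshold, was 0.27 and passed (limma, adjusted p = 0.0278) with the replicate block and length correction together. The cause of these shifts was not tested. Leaving out a library leaves 1 sample in a group, assumed to vary like the others.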
